A study of Homo sapiens with 10 samples.

Results

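The BCL2 family apoptosis regulators were described at the histone mark H3K27ac in H1975 cells, through every region that the deposited annotated count table assigned to BCL2, BCL2L1, MCL1, BCL2L11, BMF, BBC3, PMAIP1, BID, BAX or BAK1. The rule found 60 of 67387 annotated regions, for 9 of the 10 genes, since BID had none. All 60 passed the filter on low counts. By their annotated class, 17 were promoter regions within 1 kb of a listed transcription start site (TSS), 8 were promoter flanks at 1 to 3 kb, and 35 were distal. PMAIP1 had 19 regions, BMF 12, BBC3 7, BCL2L11 6, BAK1 5, MCL1 4, BAX 4, BCL2 2 and BCL2L1 1. Both BCL2 regions were distal, and the BCL2L1 region was a promoter.

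H1975 is an established human lung adenocarcinoma line with mutant EGFR, and H3K27ac is an acetylation of histone H3 found at active promoters and enhancers. Chromatin immunoprecipitation and sequencing compared 3 groups with 3 biological replicates each, and 1 input library was made from pooled chromatin. The DMSO group spent 21 days in drug-free medium and 3 days in DMSO. The osimertinib DTP group (drug-tolerant persisters, the cells left after long drug exposure) spent 24 days in 500 nM osimertinib, an EGFR inhibitor. The osimertinib DTP + AZD5153 group spent 21 days in 500 nM osimertinib and then 3 days in 150 nM AZD5153, an inhibitor of BET bromodomain proteins, which bind acetylated histones. The labels do not say whether osimertinib stayed on during those last days. All groups shared the parental line, so the study is a model of 1 tumour, and no added allele or transgene was named. In bulk chromatin, a change in the share of cells that carry the mark and a change in its level per cell cannot be told apart.

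Total counts per H3K27ac library ranged from 6263443 to 10463351. Replicate 3 of osimertinib DTP + AZD5153 stood apart: it had the lowest total, its Spearman correlation with its own replicates was 0.430 and 0.354 (0.818 to 0.898 between the other replicates of a group), and 66.7% of its annotated counts lay in promoters. For osimertinib DTP replicate 2 that share was 59.8%, and the other 7 libraries had 40.3% to 45.9%. Results are therefore given with all 9 libraries and again with 8 libraries, without replicate 3 of osimertinib DTP + AZD5153. All 6 epithelial marker genes had promoter regions, with 4441 to 6931 counts per library in all, whereas 1 of 4 blood cell markers (28 to 73 counts) and 2 of 4 fibroblast and endothelium markers (71 to 438 counts) had any. These sums also grow with the number of regions, which was larger for the epithelial genes. By its highest promoter region, each epithelial gene had a mean count from 101.1 (KRT18) to 612.2 (KRT8). COL1A1 had 137.6, COL1A2 54.9 and CD14 43.4. Input counts at the 60 regions were 1 to 25, beside a median of 10 over all regions. The input library held only 1870885 counts in total, so its raw counts are not on the scale of the H3K27ac counts.

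The family controls whether the outer mitochondrial membrane is opened to release cytochrome c, the step that starts the intrinsic path of apoptosis. BAX and BAK1 form the pore. BCL2, BCL2L1 (BCL-XL) and MCL1 hold them back, and the BH3-only proteins BCL2L11 (BIM), BMF, BBC3 (PUMA), PMAIP1 (NOXA) and BID either block those guardians or activate the pore formers. In lung cancer cells with mutant EGFR, BCL2L11 is known as a main mediator of death after EGFR inhibition, because EGFR signalling through ERK marks its protein for degradation and restrains its transcription.

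RefSeq promoter windows of assembly GRCh38.p14, from 250 bases before to 50 after a start, were at hand for 9 of the 10 genes in 15 windows. 4 of them are shown, those of BCL2 and PMAIP1 because these genes had the largest distal differences while nothing passed at their own starts, and those of BCL2L11 and BBC3 because they are the members among the BH3-only genes with regions called higher in osimertinib DTP with 8 libraries. They are given 5′ to 3′ on the gene's strand. In the first pair the capitals mark CG dinucleotides, the sites of DNA methylation, with 31 in BCL2 (chr18:63319720-63320019, minus strand) and 42 in PMAIP1 (chr18:59899746-59900045, plus strand). The median over 35116 windows was 14.
BCL2: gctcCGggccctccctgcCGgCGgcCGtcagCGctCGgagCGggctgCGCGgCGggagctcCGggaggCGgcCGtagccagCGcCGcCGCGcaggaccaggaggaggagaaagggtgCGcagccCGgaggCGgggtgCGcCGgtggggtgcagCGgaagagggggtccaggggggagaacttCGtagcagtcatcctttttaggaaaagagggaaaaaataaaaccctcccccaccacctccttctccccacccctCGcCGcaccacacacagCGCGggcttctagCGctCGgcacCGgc
PMAIP1: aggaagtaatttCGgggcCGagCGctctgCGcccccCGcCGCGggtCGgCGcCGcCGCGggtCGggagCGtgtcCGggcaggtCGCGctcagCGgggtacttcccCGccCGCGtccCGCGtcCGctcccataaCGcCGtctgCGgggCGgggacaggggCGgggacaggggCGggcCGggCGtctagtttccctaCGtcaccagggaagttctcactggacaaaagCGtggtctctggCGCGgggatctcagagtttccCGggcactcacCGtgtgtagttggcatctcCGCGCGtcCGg
In the second pair the capitals mark motifs searched on both strands. BCL2L11 (chr2:111120664-111120963, plus strand) held the forkhead letters TGTTTAC, on the other strand, from base 28. BBC3 (chr19:47232618-47232917, minus strand) held the E-box CACGTG from base 19, and, on the other strand, the AP-1 letters TGACTCA from base 138 and the TEAD letters CATTCC from base 293.
BCL2L11: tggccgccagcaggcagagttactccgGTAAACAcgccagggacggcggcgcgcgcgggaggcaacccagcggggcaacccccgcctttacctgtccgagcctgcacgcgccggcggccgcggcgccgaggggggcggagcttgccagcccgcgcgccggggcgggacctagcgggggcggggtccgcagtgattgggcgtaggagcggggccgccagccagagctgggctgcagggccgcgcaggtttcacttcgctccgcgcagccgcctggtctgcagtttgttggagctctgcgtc
BBC3: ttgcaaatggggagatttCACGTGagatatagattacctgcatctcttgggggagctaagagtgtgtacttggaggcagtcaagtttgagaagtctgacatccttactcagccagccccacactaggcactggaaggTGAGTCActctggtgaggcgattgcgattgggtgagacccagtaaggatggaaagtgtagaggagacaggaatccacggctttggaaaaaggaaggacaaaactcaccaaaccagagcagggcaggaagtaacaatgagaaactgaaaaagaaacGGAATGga
The forkhead letters were present in 3.42% of all windows, the E-box in 7.26%, the AP-1 letters in 4.95% and the TEAD letters in 14.03%. The E-box was also found in the windows of BAX and BID. ETS letters CCGGAA were present in 17.25% of windows and in one of BCL2L1, and the CRE letters TGACGTCA in 1.85% and in no window of the family. These matches describe letters, not binding.

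The promoter regions were the class most often marked in all libraries. A peak was called in all 9 libraries at 11 of the 17 promoter regions, 4 of the 8 flanks and 8 of the 35 distal regions, and every one of the 60 regions had a peak in at least 1 library. Among the promoter regions without a peak in all libraries, those of BMF had one in 1 of 3 and 0 of 3 DMSO libraries. The same held for the BBC3 promoter regions chr19:47230568-47231069 (1 of 3) and chr19:47229921-47230422 (0 of 3). All regions were of one width, 502 bp, so width does not set their levels apart. The levels are not corrected for input, which differed between the promoter regions ranked here. Its counts were 23 at MCL1, 23 at BCL2L1, 15 at BCL2L11, 13 at BAX, 4 at BBC3, 1 at PMAIP1, 14 at BAK1 and 9 at BMF. The order of the genes below is therefore one of uncorrected counts. In DMSO, the promoter region with the most counts was highest at MCL1, with 50.7 ± 6.78 TMM-scaled CPM (counts scaled to library size, mean ± SD, n = 3), and at BCL2L1, with 41.8 ± 9.60 CPM. Library by library in DMSO, MCL1 held 48.25, 58.35 and 45.46 CPM and BCL2L1 36.73, 52.87 and 35.8 CPM. MCL1 was thus the higher in each, and the difference was not tested. BCL2L11 followed at 19.7 ± 5.77 CPM, then BAX at 18.25 ± 3.49 CPM, BBC3 at 16.7 ± 5.18 CPM and PMAIP1 at 16.1 ± 1.54 CPM. Their ranges of mean ± SD overlapped, though the means of BCL2L11 and BAX lay above the range of PMAIP1. BAK1 stood at 12.35 ± 0.66 CPM, within the spread of BBC3. BMF was lowest of the 8 genes, at 2.72 ± 0.90 CPM.

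In osimertinib DTP, no promoter region of the family passed the test with 9 libraries. The MCL1 promoter region at chr1:150579061-150579562 held 532, 565 and 452 counts with DMSO, 488, 786 and 421 for osimertinib DTP, and 368, 392 and 627 for osimertinib DTP + AZD5153. Counts here and further on follow the replicate numbers. Its groups overlapped (log2 fold change 0.38, SE 0.55, edgeR adjusted p = 0.732 in osimertinib DTP against DMSO). The same 2 libraries were highest at each of the promoter regions plotted, replicate 2 of osimertinib DTP and replicate 3 of osimertinib DTP + AZD5153, which are the libraries with the highest promoter share over the whole genome. Of the members' own counts, 68.6% and 69.8% lay in promoters in these 2 libraries, beside 42.9% to 50.7% in the others. What part of the promoter values this accounts for was not tested.

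**Figure D1:**
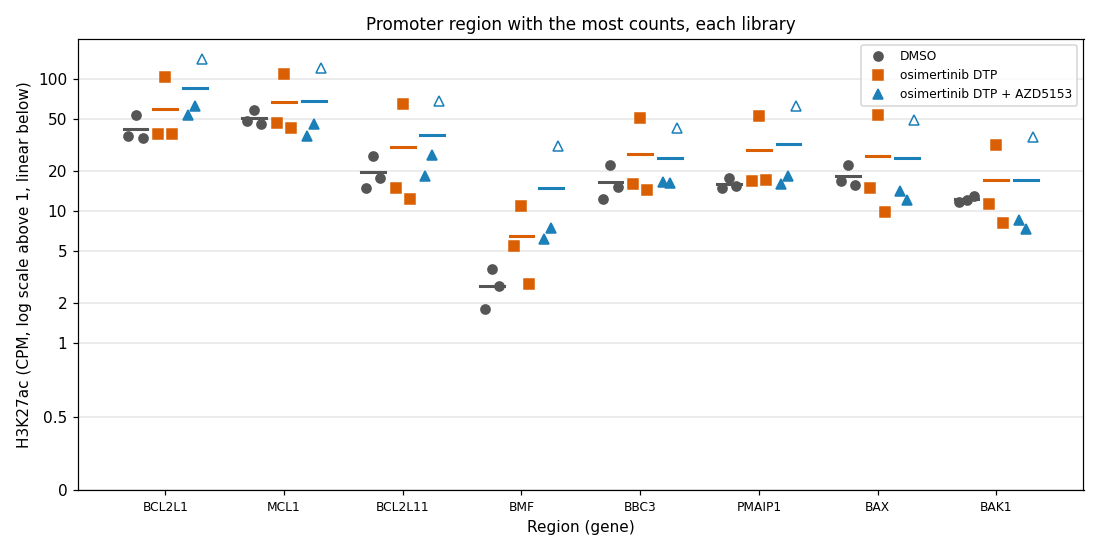
H3K27ac at the promoter region with the most counts of each of 8 family genes, in TMM-scaled CPM (vertical axis, log scale above 1). Points are libraries, bars are group means of 3, and the open triangle is replicate 3 of osimertinib DTP + AZD5153, which together with replicate 2 of osimertinib DTP sits above the other libraries at each gene.

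The first comparison asked which regions of these genes gained or lost the mark in osimertinib persisters. Of the 60 regions, 1 was higher and 2 were lower in osimertinib DTP than in DMSO with 9 libraries (edgeR quasi-likelihood test, Benjamini-Hochberg adjusted p under 0.05 over 157919 regions). All of them were distal. Over all regions tested, 5.58% were called higher and 5.13% lower, so the family's shares were below the background in both directions. With 8 libraries, 11 were higher and 10 lower, beside 14.2% and 12.7% of all regions, which is near the background. Of the 35 distal regions, 7 rose and 10 fell, where 42.6% of all annotated distal regions were called in either direction. Of the 17 promoter regions 2 rose, where 14.3% of annotated promoter regions were called in either direction.

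Promoter and distal regions had different medians. The median log2 fold change of osimertinib DTP against DMSO was 0.50 for the 17 promoter regions (0.35 over annotated promoters) and -0.50 for the 35 distal ones (-0.06 over annotated distal regions), and 0.52 for the 8 flanks. The median of all tested regions was itself 0.15, which became 0.06 without TMM scaling and 0.05 with a loess offset. The distal median rests on PMAIP1, which gave 17 of the 35 regions. In the promoter class, replicate 2 of osimertinib DTP stood out, and both fits include it. Summed over the 17 promoter regions, raw counts were 2542, 3090 and 2345 with DMSO, and 2510, 4626 and 2145 for osimertinib DTP. How far the promoter median rests on that library was not tested. Without it, the median of all 60 regions turned negative, as given in the last section. The counts of 13 member regions lay above and 14 below those of DMSO with no overlap between the groups, and 39.1% of all tested regions did not overlap.

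**Figure D2:**
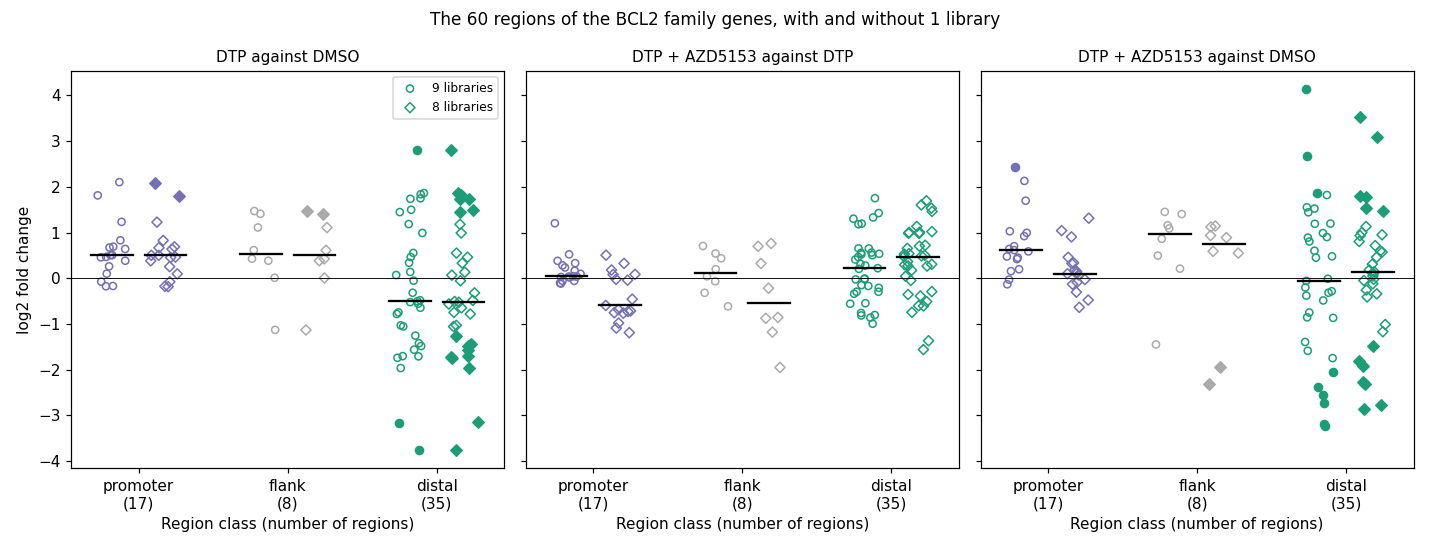
Log2 fold change (vertical axis) of the 60 family regions by class in each comparison, with circles for the fit of 9 libraries and diamonds for the fit of 8. Filled symbols have an adjusted p under 0.05, and black lines are medians, which in osimertinib DTP against DMSO are 0.50 for promoter and -0.50 for distal regions. Both fits include replicate 2 of osimertinib DTP, the library of that group with the highest promoter share.

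BCL2, the guardian that is the target of venetoclax, had the highest rise of the family. Its lead region, chr18:63236941-63237442, lies in intron 2 of 2 of the gene, 82.6 kb from the RefSeq 5′ end. The region held 22, 8 and 5 counts with DMSO, 99, 60 and 59 for osimertinib DTP, and 153, 93 and 175 for osimertinib DTP + AZD5153. Every treated library was above every DMSO library. In CPM the means were 1.11 ± 0.79, 7.92 ± 1.80 and 19.99 ± 12.2 (SD, n = 3 each). The log2 fold change against DMSO was 2.81 (SE 0.66, adjusted p = 0.0143) in osimertinib DTP and 4.14 (SE 0.69, adjusted p = 0.00176) in osimertinib DTP + AZD5153. With 8 libraries the values were 2.80 (adjusted p = 0.000281) and 3.52 (adjusted p = 3.73e-05). A peak was called there in 1 DMSO library and in all 6 treated libraries. The first of these calls was lost without DMSO replicate 2 (adjusted p = 0.103) or DMSO replicate 3 (adjusted p = 0.102), and the second held in all 9 fits that left out 1 library.

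The neighbouring BCL2 region, chr18:63237857-63238358, held 54, 39 and 10 counts with DMSO, 100, 81 and 73 for osimertinib DTP, and 296, 236 and 34 for osimertinib DTP + AZD5153. In CPM every treated library was above every DMSO library, and replicate 3 of the last group, the shallowest library, was the lowest of the treated ones (6.57 CPM beside a DMSO maximum of 4.90 CPM). The region was called in osimertinib DTP + AZD5153 against DMSO (log2 fold change 2.68, adjusted p = 0.0137) and, with 8 libraries, in osimertinib DTP as well (1.49, adjusted p = 0.0244). Summed over both regions, distal counts of BCL2 were above DMSO in osimertinib DTP (log2 fold change 1.90, SE 0.49, adjusted p = 0.0387) and in osimertinib DTP + AZD5153 (3.04, SE 0.51, adjusted p = 0.00540).

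The annotated table gave BCL2 no promoter region. In the full count table, the region over the RefSeq promoter window printed above (chr18:63319386-63319887) was outside the rule and held 6, 8 and 13 counts with DMSO, 12, 24 and 7 for osimertinib DTP, and 13, 8 and 37 for osimertinib DTP + AZD5153. It did not pass the test (log2 fold change 0.92, adjusted p = 0.548 in osimertinib DTP, and 0.332 with 8 libraries). Its level in DMSO, 0.89 ± 0.39 CPM, was below that of every promoter region plotted. A further region next to the window, chr18:63320405-63320906, was also outside the rule and held 21, 25 and 14 counts with DMSO. Its DMSO level was higher, at 1.965 ± 0.59 CPM, and it did not pass in osimertinib DTP either (log2 fold change 0.44, adjusted p = 0.77).

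BCL2L1, whose product BCL-XL guards the outer membrane, was represented by the single promoter region chr20:31723139-31723640. It held 405, 512 and 356 counts with DMSO, 397, 734 and 376 for osimertinib DTP, and 530, 536 and 726 for osimertinib DTP + AZD5153. Only replicate 2 of osimertinib DTP stood above the DMSO range in its group, and the log2 fold change there was 0.50 (SE 0.54, adjusted p = 0.623). In osimertinib DTP + AZD5153 each library was above each DMSO library, yet the fold change of 1.03 (SE 0.55, adjusted p = 0.208) did not pass and was 0.46 with 8 libraries (adjusted p = 0.462).

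MCL1, a guardian with a short-lived protein, had a distal region that fell. It lies at chr1:150603324-150603825, in intron 4 of 4 of the neighbouring gene ENSA and 23.6 kb from the MCL1 start. It held 137, 79 and 128 counts with DMSO, 61, 22 and 71 for osimertinib DTP, and 44, 17 and 8 for osimertinib DTP + AZD5153. No treated library reached the lowest DMSO library. The log2 fold change was -1.05 in osimertinib DTP (SE 0.57, adjusted p = 0.258) and -2.05 in osimertinib DTP + AZD5153 (SE 0.59, adjusted p = 0.0239), or -1.80 with 8 libraries (adjusted p = 0.0108). The call was lost without DMSO replicate 1, 2 or 3 (adjusted p = 0.0696, 0.0598 and 0.0960) and without replicate 2 of osimertinib DTP + AZD5153 (adjusted p = 0.0737). A peak was called in all 6 libraries of the first 2 groups and in 1 library of osimertinib DTP + AZD5153. The other MCL1 promoter region and the flank did not pass in either comparison with DMSO.

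BCL2L11 encodes BIM, the BH3-only protein tied most closely to EGFR inhibition. The promoter region with the most counts, chr2:111120196-111120697, held 166, 253 and 177 with DMSO, 157, 465 and 123 for osimertinib DTP, and 183, 227 and 348 for osimertinib DTP + AZD5153. Its 3 promoter regions had log2 fold changes of 0.47 to 0.67 in osimertinib DTP and none passed. Its 3 distal regions, adjacent in intron 4 of 4 and 36.0 to 37.1 kb past the start, were all higher. The lead region, chr2:111160275-111160776, held 30, 9 and 17 counts with DMSO, 57, 39 and 87 for osimertinib DTP, and 40, 75 and 14 for osimertinib DTP + AZD5153. All osimertinib DTP libraries were above the DMSO range, and replicate 3 of osimertinib DTP + AZD5153 was within it. The log2 fold change in osimertinib DTP was 1.86 (SE 0.62, adjusted p = 0.0603) with 9 libraries and 1.85 (SE 0.49, adjusted p = 0.00646) with 8. In osimertinib DTP + AZD5153 it was 1.52 (adjusted p = 0.0946) with 9 and 1.81 (adjusted p = 0.0102) with 8 libraries. No DMSO library had a peak there, and all 3 osimertinib DTP libraries did. With 8 libraries, all 3 of these regions were called in osimertinib DTP, and their sum rose by a log2 fold change of 1.64 (adjusted p = 0.0439).

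BBC3 encodes PUMA, which binds all the guardians. With 8 libraries, 4 of its 7 regions were higher in osimertinib DTP, and none was called with 9. The promoter region with the most counts, chr19:47227567-47228068, was not among them and held 136, 217 and 152 with DMSO, 168, 363 and 142 for osimertinib DTP, and 164, 141 and 220 for osimertinib DTP + AZD5153. The lead region, chr19:47229921-47230422, lies 0.8 kb from a listed start and held 23, 7 and 17 counts with DMSO, 36, 45 and 63 for osimertinib DTP, and 28, 30 and 45 for osimertinib DTP + AZD5153. Every treated library exceeded every DMSO library. The log2 fold change in osimertinib DTP was 1.81 (SE 0.63, adjusted p = 0.0726) with 9 libraries and 1.80 (SE 0.49, adjusted p = 0.00835) with 8. The promoter region 0.1 kb from a listed start, chr19:47230568-47231069, held 16, 16 and 22 counts with DMSO, 35, 115 and 37 for osimertinib DTP, and 25, 36 and 88 for osimertinib DTP + AZD5153, with a log2 fold change of 2.09 (adjusted p = 0.00689) with 8 libraries. The region over the RefSeq window printed above, chr19:47232633-47233134, overlapped between groups, with 31, 73 and 63 counts with DMSO, 20, 52 and 57 for osimertinib DTP, and 16, 93 and 14 for osimertinib DTP + AZD5153.

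BMF, a BH3-only protein linked to loss of attachment, had 12 regions with log2 fold changes from -0.745 to 1.23 in osimertinib DTP, 9 of them positive, and no call in either fit. The region chr15:40089376-40089877 lay above DMSO there without overlap (0.99, adjusted p = 0.253). In osimertinib DTP + AZD5153 it gave 2 calls. One is at the 3′ UTR, chr15:40088391-40088892, with 31, 28 and 47 counts with DMSO, 60, 43 and 36 for osimertinib DTP, and 81, 104 and 92 for osimertinib DTP + AZD5153. The last group was above both others without overlap (log2 fold change against DMSO 1.86, SE 0.55, adjusted p = 0.0277, and 1.53, adjusted p = 0.0134 with 8 libraries). The other is the promoter region chr15:40108317-40108818, with 20, 35 and 27 counts with DMSO, 57, 79 and 28 for osimertinib DTP, and 61, 64 and 160 for osimertinib DTP + AZD5153. Replicate 3 held the highest count, and the log2 fold change of 2.43 (adjusted p = 0.0260) became 1.31 (adjusted p = 0.0549) without it. Leaving out DMSO replicate 1, 2 or 3 also ended the call at the promoter (adjusted p = 0.111, 0.0817 and 0.107) and at the 3′ UTR (adjusted p = 0.116, 0.136 and 0.0806). With 8 libraries, all 12 BMF regions had a positive fold change in osimertinib DTP + AZD5153 against DMSO, and 2 passed. Both lie in the 3′ UTR.

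PMAIP1 encodes NOXA, which pairs chiefly with MCL1, and the mark fell at some of its distal regions, while no promoter region passed in either direction. The promoter region chr18:59900012-59900513, beside the CG-rich window printed above, held 166, 173 and 153 counts with DMSO, 176, 375 and 169 for osimertinib DTP, and 161, 159 and 320 for osimertinib DTP + AZD5153 (log2 fold change 0.83, SE 0.62, adjusted p = 0.442 in osimertinib DTP). Of the 17 distal regions, 16 had a negative log2 fold change in osimertinib DTP, with a median of -1.25. With 9 libraries 2 of them were called lower, beside 3935 of all 36543 annotated distal regions. With 8 libraries 9 of them were, beside 8275 of the 36543.

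The steepest loss of the family was at chr18:59951825-59952326, an intergenic region 51.8 kb past the start. It held 126, 202 and 120 counts with DMSO, 16, 4 and 11 for osimertinib DTP, and 28, 13 and 1 for osimertinib DTP + AZD5153. The treated libraries lay far below the DMSO range, with means of 14.8 ± 5.27 CPM in DMSO, 1.06 ± 0.49 CPM in osimertinib DTP and 1.504 ± 1.31 CPM in osimertinib DTP + AZD5153 (SD, n = 3 each). The log2 fold change was -3.75 (SE 0.73, adjusted p = 0.00611) in osimertinib DTP and -3.22 (SE 0.71, adjusted p = 0.00621) in osimertinib DTP + AZD5153, and -3.75 (adjusted p = 1.73e-05) and -2.77 (adjusted p = 0.000566) with 8 libraries. All 3 DMSO libraries had a peak there, no osimertinib DTP library did, and 1 library of osimertinib DTP + AZD5153 did. The call in osimertinib DTP was lost without DMSO replicate 2 (adjusted p = 0.0548). The region at chr18:59950908-59951409, the other one called with 9 libraries, fell from 45, 64 and 58 counts to 6, 3 and 8 in osimertinib DTP and to 8, 6 and 1 in osimertinib DTP + AZD5153.

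Regions on both sides of PMAIP1 were lower. At chr18:59885427-59885928, 14 kb before the start, counts were 91, 154 and 121 with DMSO, 38, 43 and 27 for osimertinib DTP, and 38, 22 and 2 for osimertinib DTP + AZD5153. At chr18:59916099-59916600, 16.1 kb past the start, they were 78, 146 and 99, then 44, 20 and 28, then 20, 20 and 5. At chr18:59984679-59985180, 84.6 kb past the start, they were 30, 54 and 43, then 9, 9 and 11, then 7, 9 and 0. The region 59.2 kb past the start held 40, 67 and 28 counts with DMSO, 18, 14 and 13 for osimertinib DTP, and 38, 25 and 2 for osimertinib DTP + AZD5153, and was called in osimertinib DTP with 8 libraries alone (adjusted p = 0.0315). In none of the other 3 did a treated library reach a DMSO library, and those 3 were called in osimertinib DTP + AZD5153 against DMSO with 9 libraries (adjusted p = 0.0215, 0.00744 and 0.0208) and in osimertinib DTP with 8 (adjusted p = 0.0103, 0.00527 and 0.00657). The calls against DMSO in osimertinib DTP + AZD5153 were lost without DMSO replicate 2 at all 3 (adjusted p = 0.0973, 0.0553 and 0.106), without DMSO replicate 3 at the first and last (0.0692 and 0.0760), and without replicate 1 of osimertinib DTP + AZD5153 at the last (0.0574). The 4 regions from 17.2 to 23.4 kb past the start had log2 fold changes from -0.52 to 0.14 in osimertinib DTP and none passed. The summed distal counts of PMAIP1 had a log2 fold change of -1.02 in osimertinib DTP with either set of libraries (adjusted p = 0.227 with 9 and 0.0159 with 8).

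**Figure D3:**
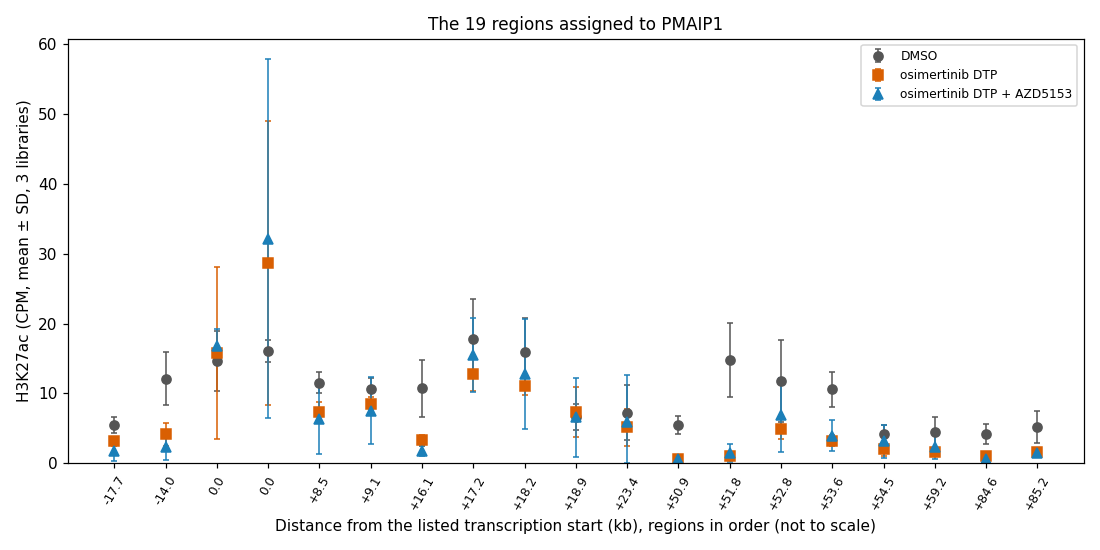
H3K27ac at the 19 regions assigned to PMAIP1, in order of distance from the listed start (horizontal axis, kb, not to scale), as mean ± SD in TMM-scaled CPM of 3 libraries per group, with lower bars stopped at 0. At 51.8 kb the means are 14.8 CPM in DMSO and 1.06 CPM in osimertinib DTP.

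BID, the BH3-only protein that caspase-8 cleaves, had no region in the annotated table. The full count table held 7 regions within 1 kb of its RefSeq bounds, outside the rule. One of them, chr22:17772778-17773279, held 14, 13 and 12 counts with DMSO, 31, 70 and 62 for osimertinib DTP, and 15, 16 and 39 for osimertinib DTP + AZD5153. It was higher in osimertinib DTP than in DMSO (log2 fold change 2.29, SE 0.69, adjusted p = 0.0426, and 0.00173 with 8 libraries) and is named because it was the only 1 of the 5 regions tested there that passed with 9 libraries. The region over its promoter windows, chr22:17773975-17774476, held 17, 10 and 9 counts with DMSO, 22, 107 and 31 for osimertinib DTP, and 19, 15 and 49 for osimertinib DTP + AZD5153 (log2 fold change 2.50 in osimertinib DTP, adjusted p = 0.0584, and 2.49, adjusted p = 0.00414 with 8 libraries).

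The pore formers came last. BAX had 2 distal regions, 8.2 and 7.7 kb before its start, and the lead, chr19:48946068-48946569, held 23, 12 and 20 counts with DMSO, 66, 66 and 26 for osimertinib DTP, and 32, 7 and 44 for osimertinib DTP + AZD5153. Osimertinib DTP lay above DMSO without overlap, whereas the third group spread across both. The log2 fold change in osimertinib DTP was 1.75 (SE 0.73, adjusted p = 0.132) with 9 libraries and 1.74 (SE 0.54, adjusted p = 0.0189) with 8. The BAX promoter region chr19:48954847-48955348 held 187, 215 and 155 counts with DMSO, 157, 381 and 98 for osimertinib DTP, and 142, 104 and 252 for osimertinib DTP + AZD5153, and did not pass (adjusted p = 0.705).

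BAK1 had a region in intron 2 of 5 of its neighbour GGNBP1, chr6:33562055-33562556, with 33, 53 and 39 counts with DMSO, 17, 9 and 15 for osimertinib DTP, and 46, 34 and 17 for osimertinib DTP + AZD5153. The osimertinib DTP libraries were below all DMSO libraries (log2 fold change -1.48, SE 0.56, adjusted p = 0.0936, and 0.0210 with 8 libraries), and the third group overlapped DMSO. The BAK1 promoter region chr6:33579679-33580180 held 130, 118 and 130 counts with DMSO, 118, 227 and 81 for osimertinib DTP, and 86, 63 and 186 for osimertinib DTP + AZD5153, and did not pass (adjusted p = 0.737 in osimertinib DTP). Near it, 2 flank regions fell in osimertinib DTP + AZD5153 only where replicate 3 was left out. At chr6:33576788-33577289 the counts were 42, 72 and 54 with DMSO, 28, 18 and 24 for osimertinib DTP, and 3, 17 and 21 for osimertinib DTP + AZD5153, with a log2 fold change against DMSO of -1.45 (adjusted p = 0.161) with 9 libraries and -2.31 (adjusted p = 0.00725) with 8. The flank at chr6:33578705-33579206 held 78, 24 and 64 counts with DMSO, 55, 39 and 54 for osimertinib DTP, and 17, 9 and 84 for osimertinib DTP + AZD5153, so replicate 3 decides it (0.21 with 9 libraries and -1.94 with 8).

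**Figure D4:**
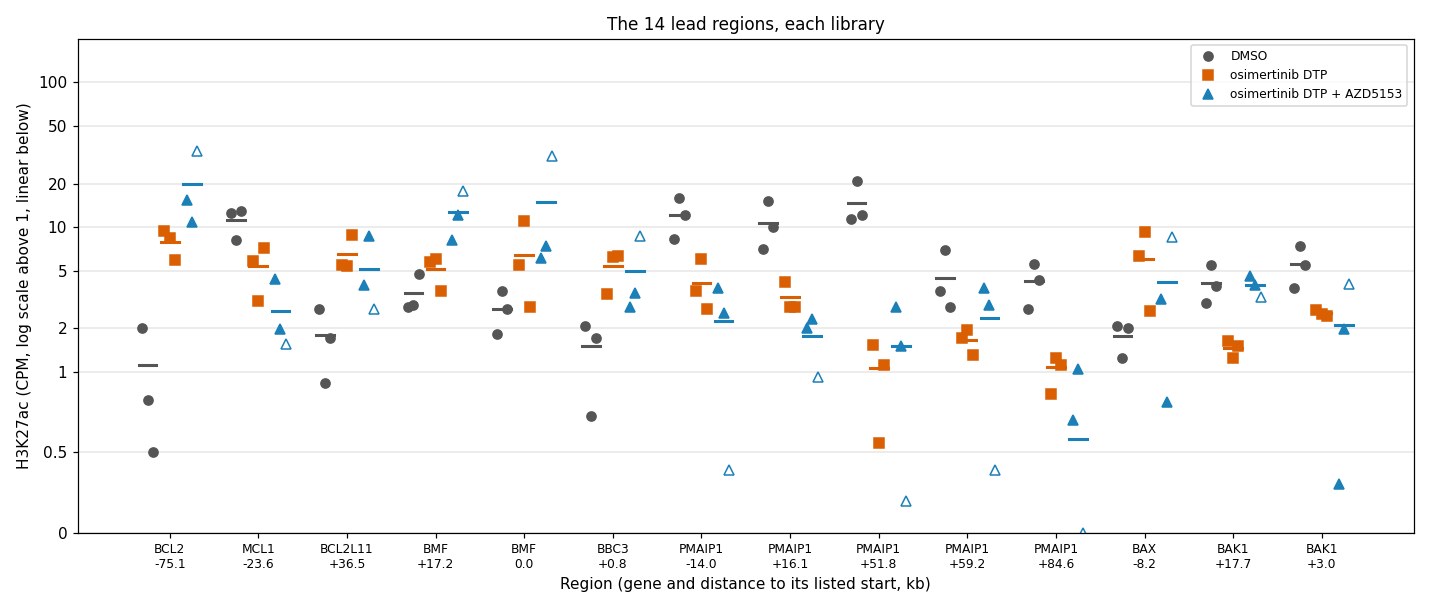
H3K27ac in each library at the 14 lead regions, named by gene and distance to the listed start in kb (horizontal axis), in TMM-scaled CPM (vertical axis, log scale above 1, linear below). Points are libraries, bars are means of 3, and open triangles are replicate 3 of osimertinib DTP + AZD5153. BCL2 rises from 1.11 to 7.92 CPM and PMAIP1 at 51.8 kb drops from 14.8 to 1.06 CPM between DMSO and osimertinib DTP.

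The second comparison set osimertinib DTP + AZD5153 against osimertinib DTP. The labels give 21 days of osimertinib in the former and 24 in the latter, and do not say whether it stayed on with AZD5153. Effects of 3 days of AZD5153 and of stopping osimertinib therefore cannot be told apart. None of the 60 regions was called, and of all regions tested 0% were called with 9 libraries and 0.122% with 8. At an unadjusted p under 0.05 there were 4 member regions with 9 libraries, beside 7013 of all 157919, and 10 with 8, beside 32444 of all 161758, and DESeq2 called 0 as well. The 4 were the BCL2 lead (log2 fold change 1.33), BMF at chr15:40081878-40082379 (1.75), BMF at the 3′ UTR lead (1.30) and BAK1 in GGNBP1 (1.43), all with an adjusted p of 1. All 7 distal BMF regions had a positive log2 fold change with either set of libraries, whereas 8 of the 17 distal PMAIP1 regions did with 9 libraries and 13 with 8. With 8 libraries the median of the 35 distal regions was 0.47, beside 0.23 over annotated distal regions, and that of the 17 promoter regions was -0.59, beside -0.34 over annotated promoters.

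The third comparison set osimertinib DTP + AZD5153 against DMSO. With 9 libraries 4 regions were higher and 6 lower, beside 9.05% and 9.01% of all tested regions. With 8 libraries 6 were higher and 9 lower, beside 18.4% and 17.3%. The calls with 9 libraries were both BCL2 regions and 2 BMF regions among those higher, and 5 PMAIP1 regions and 1 MCL1 region among those lower. The median of all tested regions was 0.23 with 9 libraries, -0.02 without TMM scaling, 0.30 with a loess offset and -0.11 with 8 libraries, and that of the 60 regions was 0.49 with 9 and 0.16 with 8. In 16 member regions the third group lay above and in 9 below DMSO with no overlap, beside 33.4% of all tested regions. Since this comparison and the first share the DMSO libraries, their values stand side by side here and are not evidence for each other.

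Counts summed per gene and class gave 20 sums for the family. In osimertinib DTP against DMSO, 1 of them passed with 9 libraries (BCL2 distal), where 10.1% of all 24117 sums did, and 4 passed with 8, where 25.5% did. The added sums were BCL2L11 distal, BBC3 flank (log2 fold change 1.27, adjusted p = 0.0122) and PMAIP1 distal. In osimertinib DTP + AZD5153 against DMSO, 2 sums passed with 9 libraries, where 17.4% did, namely BCL2 distal and MCL1 distal (-2.22, adjusted p = 0.0455). With 8 libraries 4 passed, where 31.1% did, and the added sums were BMF flank (0.99, adjusted p = 0.0356) and BAK1 flank (-2.23, adjusted p = 0.00360). No promoter sum of any member passed in either comparison and with either set of libraries.

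Across the 9 libraries, the summed counts of BCL2 followed those of KIRREL1-IT1 (Pearson r = 0.986), MIR6131 and KCTD12 (both 0.983) most closely among 12803 genes on other chromosomes, and those of PMAIP1 followed NAIF1 (0.984), PLAU (0.980) and LINC01135 (0.973). These values describe points that share libraries, depth and promoter share.

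Other genes of the same path were counted over lists. Over all tested regions, 5.58% were called higher and 5.13% lower in osimertinib DTP than in DMSO (14.2% and 12.7% with 8 libraries). Each list below is to be read beside these shares. Of 13 other BCL2 family genes, 12 had regions, 41 in all, and in osimertinib DTP 5 rose and 3 fell (8 and 4 with 8 libraries). The rises belonged to BOK, a BAX relative, and HRK, a BH3-only protein, and the falls to BCL2A1, a guardian, and BCL2L10. At BOK the region chr2:241540753-241541254, 10.2 kb before the start, held 22, 19 and 12 counts with DMSO, 131, 245 and 97 for osimertinib DTP, and 138, 123 and 107 for osimertinib DTP + AZD5153 (log2 fold change 3.43, adjusted p = 0.00493 in osimertinib DTP). Its treated libraries all exceeded the DMSO libraries. The median over the list was 0.04, beside 0.15 over all regions.

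Of 12 genes for mitochondrial death effectors and their inhibitors, all had regions, 31 in all, of which 0 rose and 4 fell in osimertinib DTP (1 and 7 with 8 libraries), with a median of 0.12. The 4 that fell were distal regions of XIAP, an inhibitor of caspases. At the XIAP region 40.7 kb before the start, counts were 74, 130 and 98 with DMSO, 15, 15 and 12 for osimertinib DTP, and 10, 6 and 6 for osimertinib DTP + AZD5153 (log2 fold change -2.66, adjusted p = 0.00903 in osimertinib DTP). Of 8 genes of the death receptor arm, with 48 regions, 2 regions rose and 1 fell in osimertinib DTP (5 and 4 with 8 libraries), with a median of 0.19. The rises were a region assigned to CASP8 and another assigned to FAS. The CASP8 region lies 13.6 kb before a listed start and is annotated as 3′ UTR. It held 10, 6 and 8 counts in DMSO and 69, 41 and 76 in osimertinib DTP (log2 fold change 3.07, adjusted p = 0.00726). The FAS region, chr10:89022337-89022838, is intergenic and 9.7 kb past a listed start. FAS promoter regions at a distance of 0 kb begin at chr10:88990775 and chr10:88991289, so another listed start is meant. The intergenic region held 27, 42 and 37 counts in DMSO and 120, 130 and 244 in osimertinib DTP (log2 fold change 2.36, adjusted p = 0.0359). The fall was a flank of TNFRSF1A, a receptor for TNF. In osimertinib DTP + AZD5153 against DMSO, the 3 lists had 7 higher and 3 lower, 0 and 5, and 3 and 2 regions, in the order given. Over all tested regions, 9.05% were called higher and 9.01% lower there.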

How the data were processed

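H3K27ac was measured by ChIP-seq in 9 libraries of H1975 cells, with 1 pooled input. The paper read for this work describes no ChIP-seq, so methods come from the labels. The authors deposited unnormalized read counts for 169637 regions of 502 bp, and a second table repeating 67387 of them with the nearest gene, its annotation class and a TSS distance in bp. They also deposited 1 peak list per library with fold enrichment as a ratio and p and q as −log10 values. The submitters' processing notes name BWA 0.7.17, MACS2 2.2.6, featureCounts 2.0.0, ChIPseeker 1.29.1 and build hg38, without roles. Treatment of duplicate reads and the rule behind the annotated table are not given in the sources used here. Reads of 75 nt allow at most 1152 counts per region at 1 read per start position and strand, and the highest member count was 786. Assignment to a gene is by nearest TSS and can be wrong for distal regions.

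Counts were tested with edgeR 4.0.16 (R 4.3.3): filterByExpr at a minimum count of 10, TMM, glmQLFit with robust estimation over all 9 libraries, glmQLFTest, and Benjamini-Hochberg adjustment over all 157919 regions kept (161758 in the fit of 8 libraries), with a threshold of 0.05. The script was tested on simulated data. Gene sums were counts added per symbol and class. A peak was counted where it overlapped a region by 1 base. Regions given by library are the promoter region with the most counts of each gene and the regions called in any comparison of either fit, with called regions of a gene within 2 kb given by that with the smallest p. Other regions were named after their values were seen. Alternatives were DESeq2 1.42.0 on the same filtered regions, no TMM, a loess offset, no filter, other region or library sets, a replicate block, and each library left out. Members and lists were chosen with earlier results of these data known.

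Same-numbered libraries of osimertinib DTP and DMSO deviated together (Pearson r of 0.349, 0.368 and 0.341), above the threshold of 0.1. The labels do not say what a number marks. Libraries of unlike numbers were not compared in this way, so these values cannot show that the numbers pair the groups. The main fits have no replicate term, and the replicate block is among the alternatives. Pairs of osimertinib DTP + AZD5153 did not all deviate together (0.267, -0.006 and -0.269 with osimertinib DTP, and -0.008, 0.549 and 0.355 with DMSO), so no pairing by number was seen for that group. The smallest p of an exact permutation test of 3 against 3 is 0.1, so none is given. The peak list of 1 osimertinib DTP library carries another cell line number in its name and was used under its label. A planned description of protein BH3 motifs was not made here.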

Additional observations from a re-analysis of the deposited data

How the results depend on the processing

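For osimertinib DTP against DMSO, 3 member regions were called, and 2 with an adjusted p under 0.01, 5 with a loess offset, 7 with the annotated regions alone, 11 with DESeq2 and 22 with only the libraries of both groups. Leaving out 1 library gave 0 (without DMSO replicate 2) to 21 (without replicate 3 of osimertinib DTP + AZD5153). The count for osimertinib DTP + AZD5153 against DMSO was 10, which became 4 with an adjusted p under 0.01 and 3 (without DMSO replicate 2) to 15 with 1 library left out, and 4 without DMSO replicate 3. With the replicate block, 3 and 11 regions were called, and for osimertinib DTP + AZD5153 the sums fell from 2 to 1 with the block, as they did with an adjusted p under 0.01. For gene sums in osimertinib DTP the call was lost with an adjusted p under 0.01 (0 sums), and leaving out 1 library gave 0 to 4 sums there and 1 to 4 sums in osimertinib DTP + AZD5153 against DMSO. The block left the BMF promoter region at an adjusted p of 0.0548. No region was called in osimertinib DTP + AZD5153 against osimertinib DTP under any alternative run. The fold change of the BAK1 region in GGNBP1 in osimertinib DTP + AZD5153 against DMSO, -0.06, changed sign with a loess offset (0.0222), with only both groups' libraries (0.0846), without DMSO replicate 2 (0.20) and without replicate 3 of osimertinib DTP + AZD5153 (0.0496), and leaving out 1 library gave -0.26 to 0.20, each far from the threshold. The member median of osimertinib DTP against DMSO was 0.30 and turned to -0.08 without replicate 2 of osimertinib DTP. The cause of these shifts was not tested. A call that was missed does not show that levels were alike: the SE of the BCL2L11 lead was 0.62 with 9 libraries and 0.49 with 8. The promoter peaks of the 8 genes plotted were in the same number of libraries with a stricter q or an overlap of at least 50%.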
